A study of Citrus sinensis with 6 samples.

Results

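Phenylalanine ammonia-lyase (PAL) and cinnamate 4-hydroxylase (C4H) open the phenylpropanoid pathway. The members described here are 6 genes of the 29875 in the deposited FPKM table, taken by identifier because the pathway drawing of the study labels 4 of them PAL and 2 of them C4H. The PAL genes are Cs_ont_6g020600, Cs_ont_6g020620, Cs_ont_7g006400 and Cs_ont_8g005310, and the C4H genes are Cs_ont_1g016250 and Cs_ont_4g024900. Leaf RNA of sweet orange plants raised in tissue culture (Citrus sinensis, variety Bingtang) was sequenced after 25 days, in 3 libraries of boron-deficient plants (T, 0.01 mg/L boric acid) and 3 of control plants with sufficient boron (CK, 0.25 mg/L). Plants of both groups were regenerated from callus and moved to an MS nutrient mixture before the treatment. The sample labels give 0.01 mg/L for every library, so the supply is taken from the study's methods and the series design. The sample titles say leaf for T and leaf blades for CK, although the tissue label of all 6 is leaf blade, and any difference in the part sampled cannot be told apart from boron supply. The series design calls them biological replicates, but which plants went into which library is not given. A p-value here therefore weighs the difference between the groups against the spread between these libraries only.

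PAL removes ammonia from phenylalanine and yields cinnamic acid. C4H, a cytochrome P450, then adds a hydroxyl group and yields p-coumaric acid, which 4-coumarate-CoA ligase (4CL) activates for the branches to lignin, which stiffens xylem walls, and to flavonoids. In many plants PAL is encoded by a small gene family whose copies differ in tissue and inducibility, and phenolic compounds commonly build up in tissue short of boron.

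The annotation in the table matched the PAL label in part. Exactly 3 genes of the table carried the Gene Ontology (GO) term for PAL activity, and all 3 were members, namely Cs_ont_6g020600, Cs_ont_6g020620 and Cs_ont_7g006400. Cs_ont_8g005310 had no GO term, but it shared the KEGG pathway set of the other PAL genes, phenylpropanoid biosynthesis and phenylalanine metabolism, and no gene outside these 4 had that exact set. For C4H the label could not be checked, since 0 genes of the table carried the GO term for the enzyme. Cs_ont_4g024900 was assigned to 4 KEGG pathways, which include phenylpropanoid and flavonoid biosynthesis. Cs_ont_1g016250 had neither a GO nor a KEGG entry. Its gene length implied by the FPKM values was 764 bases, against 1257 bases for Cs_ont_4g024900 and 2494 to 2839 bases for the PAL genes.

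Whole reads were recovered for the 22740 genes above 0. The libraries held 17689351 to 22631643 recovered reads in T and 19096097 to 24026313 in CK, and 1 read in a gene of 1 kilobase was worth 0.0415 to 0.0563 FPKM. FPKM scales the read number to the length of the gene and the total of the library, so that levels of different genes can be set side by side. Libraries of opposite groups were in part closer than those of 1 group: the correlation of log2(FPKM + 1) over the 16421 tested genes was 0.958 for T3 and CK1, above every pair within a group, which ran from 0.875 to 0.940. Photosynthesis genes were abundant in every library, with a summed level of 12587 to 16497 FPKM in T and 16117 to 20477 FPKM in CK, as the label of leaf tissue implies.

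Single libraries of 1 group differed by several-fold in 5 of the 6 genes, Cs_ont_1g016250 being the most even, and T and CK values overlapped in all 6. Cs_ont_6g020600, 1 of the 2 abundant PAL genes, had 32.3, 52.5 and 7.44 FPKM in T1, T2 and T3, against 9.07, 22.9 and 58.3 FPKM in CK1, CK2 and CK3. The highest value and the second highest belonged to opposite groups, as did the lowest and the second lowest, so the groups overlapped fully. The means were 30.7 ± 22.6 FPKM in T and 30.1 ± 25.4 FPKM in CK (SD, n = 3 each), while the highest library of T exceeded the lowest 7.05-fold and that of CK 6.44-fold. The log2 fold change was 0.02 (standard error 0.86, 95% interval -2.04 to 2.09, limma adjusted p = 0.999), an interval that leaves room for a 4-fold change in either direction. In bulk leaves, fewer cells of a type and less RNA per cell cannot be told apart, here and in all results that follow.

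Cs_ont_7g006400, the other abundant PAL gene, had 36.7, 26.2 and 14.3 FPKM in T1, T2 and T3, against 14, 50.1 and 54.4 FPKM in CK1, CK2 and CK3. CK2 and CK3 lay above all T libraries, but CK1 lay below all of them. The means were 25.7 ± 11.2 FPKM in T and 39.5 ± 22.2 FPKM in CK (SD, n = 3 each). The log2 fold change of -0.48 (standard error 0.58, 95% interval -1.86 to 0.90) had an adjusted p of 0.999 in limma. Without CK1 it was -1.09 with an unadjusted limma p of 0.0358, but its adjusted p was 0.573.

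Cs_ont_8g005310 was the most variable PAL gene. It had 14, 31.7 and 2.93 FPKM in T1, T2 and T3, against 2.57, 7.40 and 41.1 FPKM in CK1, CK2 and CK3. CK3 stood 16-fold above CK1 and T2 stood 10.8-fold above T3, and the recovered reads ran from 140 in CK1 to 2816 in CK3. The means were 16.2 ± 14.5 FPKM in T and 17.0 ± 21.0 FPKM in CK (SD, n = 3 each), with a log2 fold change of 0.20 (standard error 1.08, 95% interval -2.40 to 2.80, limma adjusted p = 0.999). Its direction turned without T2 (-0.49) and without CK1 (-0.59), and the value was 1.04 without T3 and 1.19 without CK3.

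Cs_ont_6g020620 was the least abundant PAL gene and the only one whose T mean was more than 2-fold the CK mean. It had 7.24, 8.52 and 1.38 FPKM in T1, T2 and T3, against 1.61, 3.98 and 2.69 FPKM in CK1, CK2 and CK3. T1 and T2 lay above all CK libraries, whereas T3 was the lowest of the 6. The means were 5.71 ± 3.81 FPKM in T and 2.76 ± 1.18 FPKM in CK (SD, n = 3 each), a ratio of 2.07. On the scale of log2(FPKM + 1), which understates changes of genes with low values, the log2 fold change was 0.65 (standard error 0.57, 95% interval -0.71 to 2.02, limma adjusted p = 0.999). With 0.1 or 0.01 added in place of 1 it was 0.75 or 0.77. The added 1 thus accounts for only part of the gap to the ratio of means, since means of logs were compared. Without T3 the log2 fold change of FPKM + 1 was 1.29 with an unadjusted limma p of 0.00950 and an adjusted p of 0.519.

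**Figure D1:**
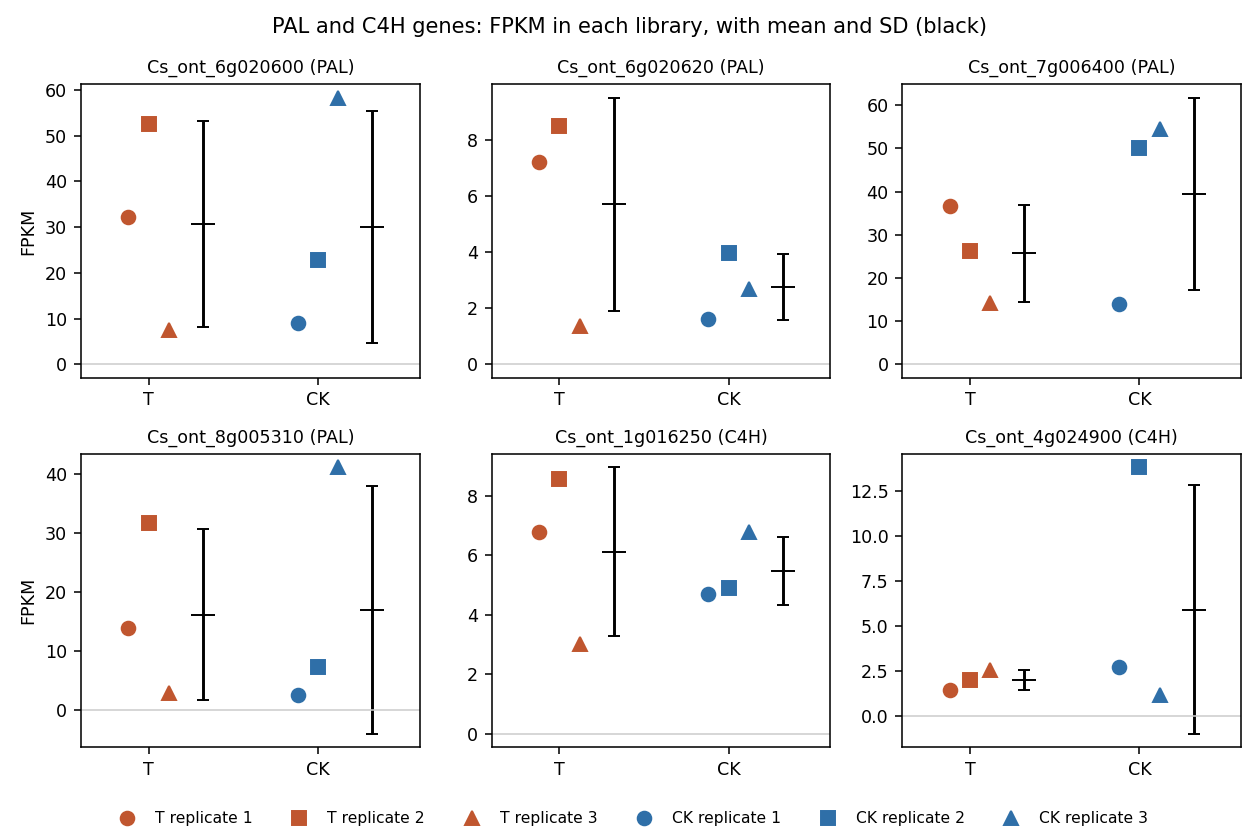
FPKM (vertical axis, a separate scale for each gene, with 0 as a grey line) of the 4 PAL and 2 C4H genes in the T libraries (orange) and the CK libraries (blue), with circles, squares and triangles for replicates 1, 2 and 3 and black bars for the mean and SD of 3 libraries. All 4 PAL genes have their 2 lowest values in T3 and CK1, and Cs_ont_4g024900 has a single high value of 13.8 in CK2.

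Both C4H genes were low. Cs_ont_1g016250 had 6.78, 8.58 and 3.02 FPKM in T1, T2 and T3, against 4.71, 4.91 and 6.78 FPKM in CK1, CK2 and CK3. Its T values enclosed all CK values. The means were 6.12 ± 2.84 FPKM in T and 5.47 ± 1.14 FPKM in CK (SD, n = 3 each), and the log2 fold change of 0.06 (standard error 0.35) had a 95% interval of -0.78 to 0.91 and an adjusted p of 0.999 in limma. These levels rested on 49 to 149 recovered reads per library.

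Cs_ont_4g024900 had 1.43, 1.99 and 2.55 FPKM in T1, T2 and T3, against 2.74, 13.8 and 1.19 FPKM in CK1, CK2 and CK3. CK2 alone stood apart, with 338 recovered reads where the other libraries had 32 to 68. The means were 1.99 ± 0.557 FPKM in T and 5.91 ± 6.89 FPKM in CK (SD, n = 3 each), which is 2.97-fold higher in CK, and the log2 fold change was -0.74 (standard error 0.68, 95% interval -2.38 to 0.89, limma adjusted p = 0.999). Without CK2 the log2 fold change was 0.05.

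None of the 6 genes was called. At a limma adjusted p under 0.05 the count was 0 of 6, where 0.00609% of the 16421 tested genes, a single gene, was called. The study asked for a change of 2-fold or more and an uncorrected p no larger than 0.05. It set these limits on DESeq results, whereas they were applied here to limma p-values and fold changes of FPKM + 1, so the counts below are not the study's calls. This criterion, called the study's criterion from here on, also took 0 of 6, where it took 2.36% of the tested genes (1.27% higher and 1.08% lower in T). The number of members with an unadjusted limma p under 0.05 was 0, beside 4.78% of the tested genes, and limma voom on the recovered reads called 0 of them as well. In 0 of the 6 genes were the T and CK values free of overlap, where this held for 8.17% of the tested genes. By exact permutation test of the mean FPKM (two-sided, 3 libraries against 3, smallest possible p = 0.1), p was 1.0 for Cs_ont_6g020600 and Cs_ont_8g005310, 0.4 for Cs_ont_6g020620 and Cs_ont_7g006400, 0.8 for Cs_ont_1g016250 and 0.6 for Cs_ont_4g024900. Leaving out 1 library changed the count of the study's criterion to 1 of 6 in 2 instances, with Cs_ont_6g020620 higher in T without T3 and Cs_ont_7g006400 lower in T without CK1.

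**Figure D2:**
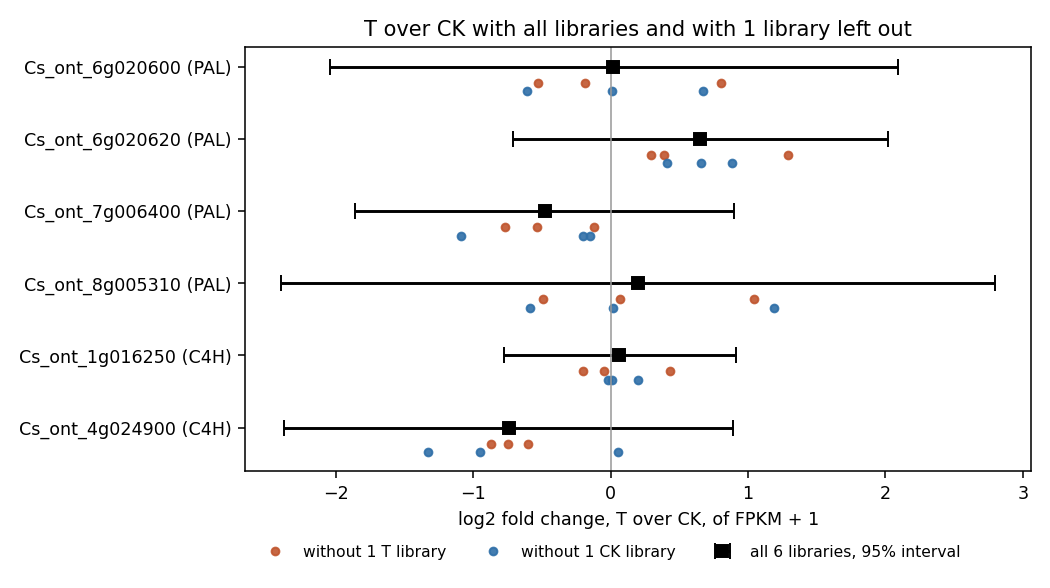
The log2 fold change of FPKM + 1, T over CK (horizontal axis), of each PAL and C4H gene with all 6 libraries (black squares, with the 95% interval from limma) and with 1 T library (orange) or 1 CK library (blue) left out. Every interval spans 0, and the values for Cs_ont_8g005310 run from -0.59 to 1.19 depending on the library left out.

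The spread within groups placed most of these genes among the variable ones of the leaf. The SD of log2(FPKM + 1) within groups had a median of 0.31 over the tested genes and a 95th percentile of 1.08. It was 1.68 for Cs_ont_8g005310 and 1.33 for Cs_ont_6g020600, at percentiles 99.2 and 97.7 of the tested genes. Cs_ont_4g024900 (1.03), Cs_ont_7g006400 (0.88) and Cs_ont_6g020620 (0.85) stood at percentiles 94.2, 91.2 and 90.2. The C4H gene Cs_ont_1g016250, at 0.49 and percentile 72.8, was the least variable of the 6. Within T the highest library was at least 5-fold above the lowest for 3 of the 6 genes, Cs_ont_6g020600, Cs_ont_6g020620 and Cs_ont_8g005310, beside 7.06% of the tested genes. Within CK this held for 3 of the 6, Cs_ont_6g020600, Cs_ont_8g005310 and Cs_ont_4g024900, beside 8.44% of the tested genes. It held in both groups for Cs_ont_6g020600 and Cs_ont_8g005310, where 2.62% of the tested genes showed both. Of the total sum of squares of log2(FPKM + 1) over the 6 libraries, the part between T and CK was 0.0132% for Cs_ont_6g020600, 0.551% for Cs_ont_8g005310 and 0.607% for Cs_ont_1g016250. It was 10% for Cs_ont_7g006400, 16.5% for Cs_ont_4g024900 and 18.3% for Cs_ont_6g020620, where the median over the tested genes was 11.5%.

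**Figure D3:**
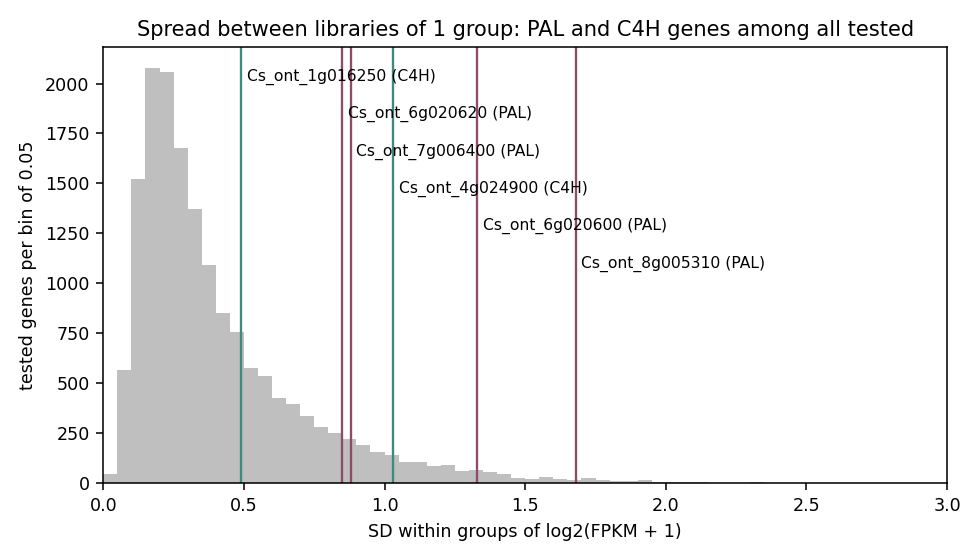
Number of tested genes (vertical axis) by their SD within groups of log2(FPKM + 1) (horizontal axis, bins of 0.05, drawn up to 3), with vertical lines at the PAL genes (purple) and the C4H genes (green). The 4 PAL genes lie between 0.85 and 1.68, to the right of the median of 0.31.

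How far the PAL genes shared an order of the libraries differed from pair to pair. When the libraries were taken in pairs, 15 in all, Cs_ont_6g020600 and Cs_ont_8g005310 put 14 of them in the same order. The other combinations of PAL genes shared 11 or 12, except Cs_ont_6g020620 and Cs_ont_7g006400, which shared only 8. The C4H gene Cs_ont_1g016250 had 14 pairs in the order of Cs_ont_6g020600, 13 in that of Cs_ont_6g020620 and of Cs_ont_8g005310, but 10 in that of Cs_ont_7g006400. Cs_ont_4g024900 shared the order of only 3 to 7 pairs with any other member. These genes were measured in the same 6 libraries, so the shared order is a description of these libraries.

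T3 and CK1, 1 library of each group, were the 2 lowest in 5 of the 6 genes, the exception being Cs_ont_4g024900. Over all tested genes 16.3% had this pattern, which was singled out after the values had been seen. The main axis of difference between the libraries (first principal component, 33.9% of the variance) set the same libraries apart. T3 (0.51) and CK1 (0.43) lay at 1 end, T2 (-0.47) and CK3 (-0.53) at the other, and T1 (0.19) and CK2 (-0.13) between. The pattern is therefore not particular to these genes. In the 4 PAL genes every other library was also at least 1.5-fold above both, which held for 4.2% of the tested genes. The summed PAL level was 90.3, 119 and 26.1 FPKM in T1, T2 and T3, against 27.3, 84.4 and 157 FPKM in CK1, CK2 and CK3, or 78.4 ± 47.5 FPKM in T and 89.4 ± 64.8 FPKM in CK (SD, n = 3 each).

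**Figure D4:**
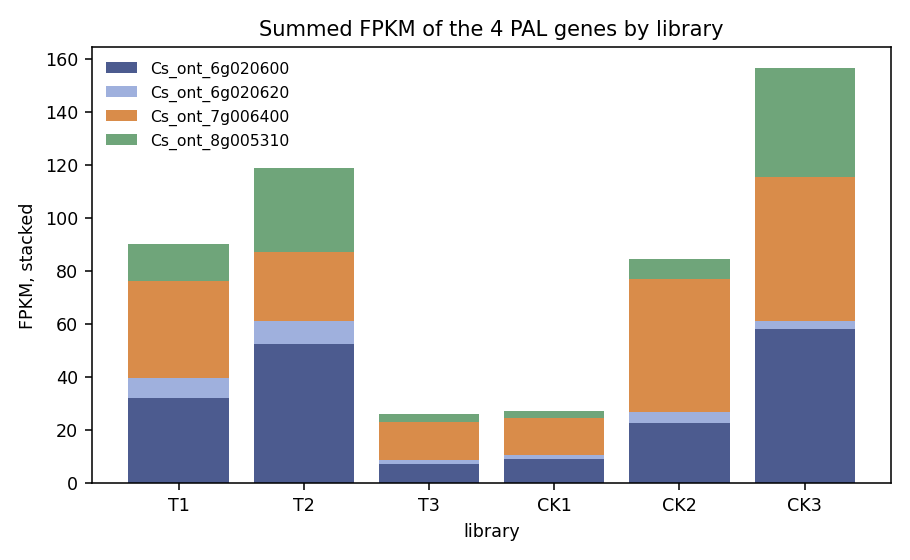
FPKM of the 4 PAL genes stacked to their sum (vertical axis) in each library, with the T libraries left of the CK libraries. T3 and CK1 have sums of 26.1 and 27.3, and T2 and CK3 have sums of 119 and 157.

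The make-up of the PAL sum also changed between libraries. Cs_ont_7g006400 gave 54.9% of the sum in T3 and 51.4% in CK1, where PAL was low, and 59.4% in CK2, but only 22% in T2 and 34.7% in CK3. Cs_ont_8g005310 gave 26.7% in T2 and 26.3% in CK3, and 8.78% to 15.5% in the other libraries. Thus the libraries with most PAL transcript drew more of it from Cs_ont_6g020600 and Cs_ont_8g005310. Cs_ont_6g020600 and Cs_ont_6g020620 lie near each other in the table, with 1 gene between them that was at 0 in every library. The ratio of their FPKM was 4.46, 6.16 and 5.40 in T1, T2 and T3, against 5.63 and 5.75 in CK1 and CK2, but 21.7 in CK3. How reads that match more than 1 PAL gene were shared out is not given in the sources used here, so the split between copies is uncertain where their sequences are alike.

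Some genes of later steps had the same libraries at the bottom. T3 and CK1 were the lowest in 2 of 3 tested 4CL genes and in the 1 chalcone isomerase. The same held for 1 of 2 tested caffeoyl-CoA O-methyltransferases, 1 of 2 cinnamoyl-CoA reductases and 0 of 1 chalcone synthase, beside 16.3% of all tested genes. These counts cover only genes that carry the GO term of the enzyme. The study drew more genes than these for 4CL and for chalcone isomerase. The most abundant gene annotated as 4CL, Cs_ont_5g016610, had 14.4, 32 and 11.2 FPKM in T1, T2 and T3, against 8.67, 19.9 and 37.7 FPKM in CK1, CK2 and CK3. The only gene annotated as chalcone isomerase, Cs_ont_7g003040, which acts early in the flavonoid branch, had 11.5, 31.5 and 4.97 FPKM in T1, T2 and T3, against 5.54, 18.5 and 56.1 FPKM in CK1, CK2 and CK3. In both, T3 and CK1 were lowest and T2 and CK3 highest. The most abundant caffeoyl-CoA O-methyltransferase, Cs_ont_8g024920, an enzyme of the lignin branch, had 41.8, 33.1 and 9.93 FPKM in T1, T2 and T3, against 6.53, 13.3 and 26.1 FPKM in CK1, CK2 and CK3. Here T1 and T2 exceeded all CK libraries while T3 did not, with a log2 fold change of 0.82 (standard error 0.65, limma adjusted p = 0.999).

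A cinnamoyl-CoA reductase and a chalcone synthase, which lead into the lignin and the flavonoid branch, were low. The more abundant cinnamoyl-CoA reductase, Cs_ont_1g011180, had 6.74, 3.82 and 2.88 FPKM in T1, T2 and T3, against 1.74, 4.23 and 9.36 FPKM in CK1, CK2 and CK3, again with T3 and CK1 lowest. The other, Cs_ont_1g011170, had 16.2, 3.32 and 1.84 FPKM in T1, T2 and T3, against 0.346, 0.213 and 1.86 FPKM in CK1, CK2 and CK3. It met the study's criterion (log2 fold change 1.83, standard error 0.71) but not the correction (limma adjusted p = 0.986), and T3 overlapped with CK3. The chalcone synthase Cs_ont_9g012610 had 0.339, 4.30 and 0.0946 FPKM in T1, T2 and T3, against 0.559, 6.95 and 4.14 FPKM in CK1, CK2 and CK3, without a call (limma adjusted p = 0.999).

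The rest of the pathway is given for comparison, and its difference from the entry genes was not tested. Without the members, 89 genes of KEGG phenylpropanoid biosynthesis were tested, and the sign was positive in 56 and negative in 33, where 53.2% of all tested genes were higher in T. Of the 6 members, 4 had a positive sign, and the median log2 fold change of the members was 0.04. The median of the 89 genes was 0.14, where that of all tested genes was 0.02. Of these 89 genes, 0 were called at a limma adjusted p under 0.05. An unadjusted limma p under 0.05 was found for 15 of them, beside 4.78% of all tested genes. Voom on the recovered reads called 0 genes of the whole table. The study's criterion took 11 of the 89 genes, or 12.4%, all higher in T, beside 1.27% of all tested genes higher in T. The one with the smallest p, Cs_ont_2g034230, carries a GO term for oxidoreductases that act on peroxide, as peroxidases do, and had 184, 127 and 22.6 FPKM in T1, T2 and T3, against 3.98, 0.695 and 1.96 FPKM in CK1, CK2 and CK3 (log2 fold change 4.82, standard error 0.81, limma adjusted p = 0.396). Its groups did not overlap, although T3 was again the lowest T library. The most abundant gene of the list, Cs_ont_2g001880, with the same term, had 719, 606 and 486 FPKM in T1, T2 and T3, against 391, 688 and 1530 FPKM in CK1, CK2 and CK3, and had no call (limma adjusted p = 0.999).

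In the flavonoid pathway 10 of 23 tested genes were higher and 13 lower in T (median -0.11), beside 53.2% higher and a median of 0.02 over all tested genes. Its most abundant gene, Cs_ont_1g014200, had 236, 156 and 408 FPKM in T1, T2 and T3, against 397, 215 and 441 FPKM in CK1, CK2 and CK3, with T2 and CK2 as the lowest libraries. The criterion took 1 gene of this list, Cs_ont_5g024640, with 96.2, 51.5 and 72.9 FPKM in T1, T2 and T3, against 35.9, 28.8 and 11.8 FPKM in CK1, CK2 and CK3 (limma adjusted p = 0.781). Of 15 tested genes of lignin biosynthesis in GO, 4 were higher and 11 lower in T, the median was -0.22, and the criterion took Cs_ont_1g011170 alone. The most abundant of these, Cs_ont_1g022410, had 92.7, 72.4 and 151 FPKM in T1, T2 and T3, against 126, 128 and 219 FPKM in CK1, CK2 and CK3 (log2 fold change -0.59, standard error 0.35, limma adjusted p = 0.999). The list of aromatic amino acid biosynthesis covers phenylalanine, tyrosine and tryptophan, so only part of it lies upstream of PAL. In this list 33 of 43 tested genes were higher and 10 lower in T (median 0.18). The criterion took 4, all higher, beside 53.2% higher and 1.27% taken as higher over all tested genes. Its most abundant gene, the tryptophan synthase Cs_ont_5g011200, was even, with 63.2 to 65 FPKM in T and 51.4 to 63.9 FPKM in CK. In phenylalanine metabolism 13 of 18 were higher and 5 lower, with a median of 0.23 and 3 taken, all higher. Its most abundant gene, Cs_ont_6g013880, had 72.9 to 103 FPKM in T and 59.3 to 87.6 FPKM in CK. In both lists, Cs_ont_2g022740 had the smallest p among the genes meeting the criterion. It had 4.93, 2.25 and 6.31 FPKM in T1, T2 and T3, against 0.850, 0.838 and 1.75 FPKM in CK1, CK2 and CK3 (log2 fold change 1.30, standard error 0.37, limma adjusted p = 0.783). T3, the library with the lowest PAL sum, had the highest level of this gene. The number of genes called at an adjusted p under 0.05 was 0 in each of these 4 lists, where it was 1 over all tested genes. Unadjusted limma p-values under 0.05 numbered 2 of 23, 1 of 15, 6 of 43 and 3 of 18, beside 4.78% of all tested genes.

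The pattern of T3 and CK1 as the lowest libraries was found in 20 of 89 genes of phenylpropanoid biosynthesis, 7 of 23 of flavonoid biosynthesis, 7 of 15 of lignin biosynthesis and 0 of 18 of phenylalanine metabolism. Genes can belong to several lists. Among lists of 15 or more tested genes it was most frequent in 1 for vascular tissue, plant-type secondary cell wall biogenesis, at 18 of 25 tested genes or 72.0%, beside 16.3% of all tested genes. The summed level of its 39 genes was 305, 345 and 253 FPKM in T1, T2 and T3, against 216, 317 and 406 FPKM in CK1, CK2 and CK3, so T3 and CK1 were lowest and T2 and CK3 highest in their groups, as for PAL. Of these genes, 25 passed the filter and Cs_ont_5g024630, Cs_ont_9g028680 and Cs_ont_Un005250 were at 0 in every library. The cellulose synthase Cs_ont_7g028690, the most abundant of the list, had 100, 105 and 71.5 FPKM in T1, T2 and T3, against 64.5, 97.8 and 110 FPKM in CK1, CK2 and CK3. The part of vascular tissue in the PAL levels was not tested.

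Other tissue lists moved differently. Xylem development had the pattern in 8 of 25 tested genes, with 402, 352 and 433 FPKM in T1, T2 and T3, against 210, 296 and 366 FPKM in CK1, CK2 and CK3. This order rested on its most abundant gene, Cs_ont_6g011110, a transcription factor by its GO term, with 158, 113 and 162 FPKM in T1, T2 and T3, against 1.08, 1 and 8.81 FPKM in CK1, CK2 and CK3 (log2 fold change 5.38, standard error 0.62, limma adjusted p = 0.221). Without it, a step added after the values had been seen, the sums were 244, 239 and 271 FPKM in T1, T2 and T3, against 209, 295 and 357 FPKM in CK1, CK2 and CK3, so CK3 was highest and CK1 lowest. Genes of the response to wounding had it in 24 of 163, and their sum was lowest in T2 and CK3 at 7930 and 5921 FPKM, where PAL was highest, beside 9619 and 9862 FPKM in T1 and T3 and 11378 and 11912 FPKM in CK1 and CK2. The most abundant of them, Cs_ont_8g003310, had 474 to 718 FPKM in T and 74.1 to 1290 FPKM in CK, and T2 and CK3 were still lowest without it, at 7456 and 5847 FPKM. Leaf senescence had it in 10 of 89, with a sum of 4268 to 4794 FPKM in T and 3365 to 5673 FPKM in CK, of which Cs_ont_7g002400 gave 865 to 1013 FPKM in T and 316 to 1858 FPKM in CK. Photosynthesis had it in 1 of 39 and antenna proteins in 0 of 15, and the antenna list summed to 9884 to 20167 FPKM in T and 15372 to 19642 FPKM in CK. In photosynthesis 7 genes were higher and 32 lower in T (median log2 fold change -0.29). All 15 antenna genes were lower in T (median -0.53), where 46.8% of all tested genes were lower and their median was 0.02. The study's criterion took 0 genes of either list, beside 2.36% of all tested genes. The most abundant gene of photosynthesis, Cs_ont_4g021730, had 3269 to 3666 FPKM in T and 4704 to 5684 FPKM in CK, and that of the antenna proteins, Cs_ont_2g017340, had 3693 to 7376 FPKM in T and 5528 to 7636 FPKM in CK. The part of any of these in the PAL levels was not tested.

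**Figure D5:**
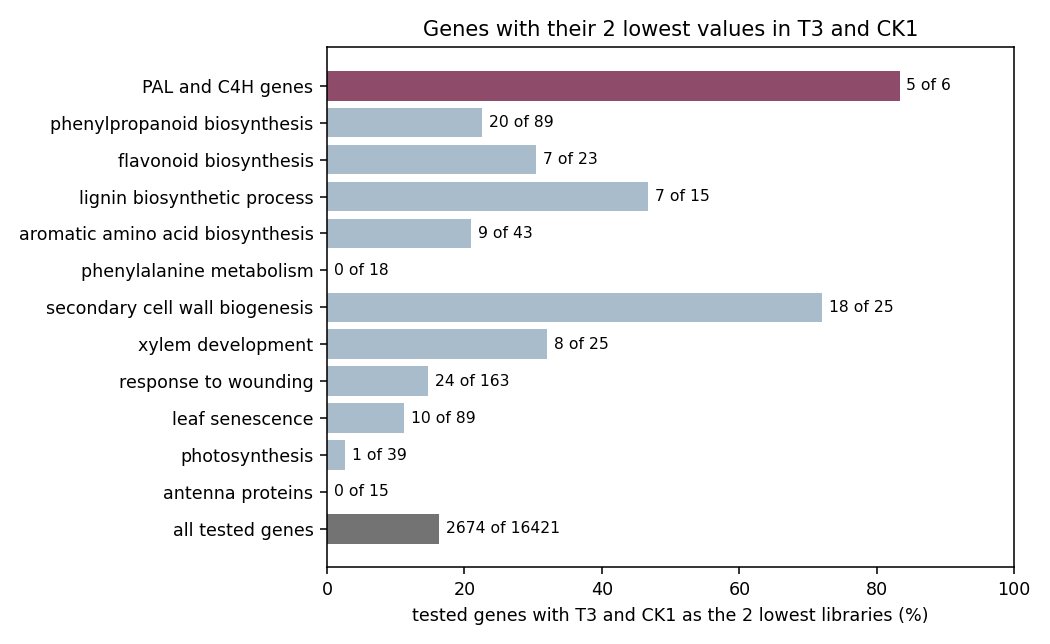
Share of tested genes (horizontal axis, percent) whose 2 lowest values were those of T3 and CK1, for the PAL and C4H genes, for pathway lists and tissue lists without those genes, and for all tested genes, with the counts beside the bars. The PAL and C4H genes (5 of 6) and secondary cell wall biogenesis (18 of 25) stand highest, beside 16.3% of all tested genes.

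The genes most like the members were sought by Pearson's r of log2(FPKM + 1) over the 6 libraries among 12540 other tested genes with a mean of at least 5 FPKM. With so few libraries high values are common, and 89 genes, 0.710%, had an r of at least 0.95 with the mean standardised pattern of the 4 PAL genes. The closest was Cs_ont_4g028460 (r = 0.999), with 54.8, 58.8 and 40.8 FPKM in T1, T2 and T3, against 41.3, 52.2 and 58.2 FPKM in CK1, CK2 and CK3. Next came Cs_ont_8g006900 (r = 0.998), with 61.7, 81.7 and 22.6 FPKM in T1, T2 and T3, against 23.2, 53.3 and 75.6 FPKM in CK1, CK2 and CK3, and then Cs_ont_7g025250 (r = 0.993). The table gives no function for any of them. The genes closest to Cs_ont_1g016250 were Cs_ont_5g040130 (r = 0.998), which was listed at 0 in T3, Cs_ont_8g025270 (r = 0.994) and Cs_ont_4g014280 (r = 0.990), annotated as a membrane transporter. The genes closest to Cs_ont_4g024900 were Cs_ont_9g000130 (r = 0.997), Cs_ont_8g024580 (r = 0.991) and Cs_ont_2g029800 (r = 0.984), annotated as a receptor kinase, and each had its highest value in CK2.

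One abundant gene outside the members shared the KEGG annotation of a C4H gene. Cs_ont_1g006760 was the only other gene assigned to the same 4 pathways as Cs_ont_4g024900, and it was looked at after this match had been seen. It had 122, 122 and 142 FPKM in T1, T2 and T3, against 104, 116 and 174 FPKM in CK1, CK2 and CK3, which was 11.5-fold to 25.5-fold the sum of both C4H members in T and 6.19-fold to 21.9-fold in CK. The means were 129 ± 11.8 FPKM in T and 131 ± 37.5 FPKM in CK (SD, n = 3 each), with a log2 fold change of 0.00 (standard error 0.24, 95% interval -0.57 to 0.57). Its SD within groups was 0.29, at percentile 46.4 of the tested genes, and its 2 lowest libraries were CK1 and CK2. Of the 15 pairs of libraries it put 12 in the order of Cs_ont_8g005310, 11 in that of Cs_ont_6g020600, 9 in that of Cs_ont_7g006400 and 8 in that of Cs_ont_6g020620, and like Cs_ont_8g005310 it was lowest in CK1 and highest in CK3, over a narrower range. Its length implied by the FPKM values was 2502 bases. The table does not name its enzyme.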

How the data were processed

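RNA sequencing of 6 leaf libraries, 3 of T and 3 of CK, was used. The authors filtered reads with fastp, used HISAT2 for alignment and HTSeq for counting reads per gene, and normalized to FPKM. Genome build, strand setting and tool versions: not given in the sources used here. Only the deposited FPKM values of single libraries were analysed, and the group averages and the authors' fold changes, p-values and calls in the same table were not used. Whole reads were recovered from the steps of the FPKM values, with gene lengths whole within 0.001 base. Where all reads of a gene share a factor with its length, that factor cannot be seen.

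T was compared with CK in limma 3.58.1 (R 4.3.3, lmFit and eBayes with trend) on log2(FPKM + 1), two-sided, over the 16421 genes with at least 1 FPKM in at least 3 libraries, with 4 residual degrees of freedom, and p-values were adjusted over all of them by Benjamini-Hochberg. All 6 members passed this filter. The script was tested on simulated data. Precision is set by 3 libraries per group. GO and KEGG lists came from the table by identifier, without the members. Genes named were the members, the most abundant gene of each list, the gene of each pathway list with the smallest p among those meeting the study's criterion, and the 3 most alike in pattern. Lists planned for p-coumaroyl transferase (HCT) and cinnamyl alcohol dehydrogenase had 0 tested genes, and L-phenylalanine catabolism and cinnamic acid biosynthesis had 1 each, Cs_ont_5g012800 and Cs_ont_3g006520 (log2 fold changes -0.05 and -0.54, limma adjusted p = 0.999 for both). The members and lists were chosen with earlier results of these data known. Alternatives were other pseudocounts, filters and scalings, voom on recovered reads, array weights, a replicate block and leaving out each library. Of the 6 identifiers, 0 matched the RefSeq gene table, so no coordinates are given. Read recovery, counts and figures were made in Python 3.11.15 with numpy 2.4.6, pandas 2.3.3, scipy 1.17.1 and matplotlib 3.10.9.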

Additional observations from a re-analysis of the deposited data

How the results depend on the processing

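No member was called at an adjusted p under 0.05 under any of the 15 alternatives (lowest limma adjusted p 0.362, with array weights), and Cs_ont_6g020620 and Cs_ont_4g024900 missed the filter at 5 FPKM. Over the libraries left out 1 at a time, the log2 fold change ran from -0.61 to 0.80 for Cs_ont_6g020600, from 0.29 to 1.29 for Cs_ont_6g020620, from -1.09 to -0.12 for Cs_ont_7g006400, from -0.59 to 1.19 for Cs_ont_8g005310, from -0.20 to 0.43 for Cs_ont_1g016250 and from -1.33 to 0.05 for Cs_ont_4g024900. The direction turned for Cs_ont_6g020600 without T replicate 1 (-0.19), T replicate 2 (-0.53) or CK replicate 1 (-0.61), for Cs_ont_8g005310 without T replicate 2 (-0.49) or CK replicate 1 (-0.59), for Cs_ont_1g016250 without T replicate 1 (-0.05), T replicate 2 (-0.20) or CK replicate 1 (-0.02), for Cs_ont_4g024900 without CK replicate 2 (0.05) and for Cs_ont_7g006400 with array weights (0.05). Array weights also moved Cs_ont_6g020600 to 0.56, Cs_ont_6g020620 to 1.03, Cs_ont_8g005310 to 0.74, Cs_ont_1g016250 to 0.28 and Cs_ont_4g024900 to -1.22, with unadjusted limma p-values of 0.0641 to 0.419. The cause was not tested.

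Members meeting the study's criterion numbered 0, and 0 to 1 with a library left out. Over all tested genes, calls at an adjusted p under 0.05 were 1, and 0 with no filter, with voom on recovered reads and with the replicate block, 12 with array weights, and 0 to 2 with a library left out. Genes meeting the study's criterion were 387, and 930 with array weights and 222 to 729 with a library left out. The replicate numbers matched the libraries in part: deviations from the group means correlated at 0.28, 0.21 and -0.04 for replicates 1, 2 and 3. T1 correlated best with CK1 and T2 with CK2, but T3 correlated best with CK1 (0.23). Whether the libraries were paired cannot be told from these values. With the replicate block 470 genes met the criterion. The log2 fold changes could not move in that fit, because each block held 1 library of each group. Precision is limited by 3 libraries per group, and by 32 to 149 recovered reads per library in most libraries of the C4H genes.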
